A study of Drosophila melanogaster with 6 samples.

Results

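Hox genes encode homeodomain transcription factors that give the segments of the fly body their identities, and they lie in the Antennapedia complex and the bithorax complex. Polycomb group proteins keep Hox genes silent outside their domains, trithorax group proteins keep them active within, and Kdm5 (also called lid, for little imaginal discs), which removes methyl groups from lysine 4 of histone H3, has been grouped genetically with the trithorax side. In the wing disc, the epithelial sac that forms the wing and the dorsal thorax, Antp is known from proximal cells of the future thorax, and tsh marks the proximal territory of hinge and thorax.

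The values described here are those of 10 genes, the Hox genes lab, Dfd, Scr, Antp, Ubx, abd-A and Abd-B and the cofactor or partner genes exd, hth and tsh. A probe set counted as a member if the platform annotation assigned it to exactly 1 gene and that gene was one of the 10. This left 6 of 18769 probe sets, which represent 4 genes: Dfd and Scr with 1 probe set each, Antp with 3 and tsh with 1. The other 6 genes, lab, Ubx, abd-A, Abd-B, exd and hth, were not analysed here.

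The discs came from larvae of the third instar at 96 h AED. The mutant group is labelled kdm510424 (kdm5 mutant) and the wild type group was the strain w1118, with 3 biological replicates of about 60 pooled discs per group and 1 Drosophila Genome 2.0 array per replicate. The genotypes also differ in strain, and strain and mutation cannot be told apart. Each value is a normalized log2 signal, and a call is a limma adjusted p under 0.05 over all 18769 probe sets.

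Kdm5 read 4.67, 3.70 and 4.49 in mutant discs, against 10.09, 10.15 and 9.98 in wild type discs. Array medians lay between 4.43 and 4.45, and of all probe sets 18.3% were called. The wing disc markers nub, vg, ap and pnr averaged 12.00, 11.02, 10.99 and 9.23 in mutant discs and 11.99, 11.20, 10.96 and 9.33 in wild type discs. Several markers of other tissues differed between the genotypes. Of the measured markers 6 of 7 fell for salivary gland (Sgs7, -2.97), 5 of 5 for fat body (Obp99b, -2.83), 5 of 5 for muscle (Mlc1, -1.37) and 4 of 8 for haemocytes (PPO1, -1.59), where 1 rose. Neuron and glia markers fell in 2 of 5 cases (ChAT, -0.61), 1 of 4 midgut markers rose (Mal-A1, 0.24), and tracheal markers rose in 2 of 4 cases (serp, 1.48) and fell in 1. ChAT averaged 3.26 in mutant and 3.87 in wild type discs, and Mal-A1 3.72 and 3.48. Both lay below the array medians, so their signal may not exceed the background. The bright neuron marker elav (9.35 and 9.47) was not called. Of all genes, with 1 probe set each, 9.76% were called higher and 11.9% lower. The summed linear signal of the salivary gland markers was 763 to 828 in mutant discs and 4014 to 9213 in wild type discs, and that of the fat body markers 417 to 447 and 1321 to 2626. The changes are on the log2 scale, and their part in the values below was not tested.

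None of the 6 probe sets of Dfd, Scr, Antp and tsh was called, against 8.49% of all probe sets called higher and 9.84% called lower. With limma 1 of the 6, an Antp probe set, had an unadjusted p under 0.05. At least 18.3% of all probe sets pass that threshold, since every called probe set does. The log2 changes of the 6 ran from 0.01 to 0.13, all positive (mutant minus wild type), with a median of 0.07 beside 0.01 over all probe sets. These are not independent values, since 3 of the 6 probe sets read Antp and all were measured on the same arrays. Mutant and wild type arrays were fully separated for 1 of the 6, with the mutant higher, against 36.1% of all probe sets in either direction and 18.0% with the mutant higher. The 95% intervals of the 6 changes reached no farther from 0 than 0.32, which is 1.25-fold, while the median size of a called change was 0.39 and the smallest was 0.16. Of the called changes, 37.3% were no larger than the 0.32 bound, so changes of a called size are not excluded. With the arrays as deposited, differences larger than 1.25-fold in either direction thus lie outside all 6 intervals. That bound depends on the scaling: with hybridization spike-in centring Dfd and Antp 1640208_s_at changed by 0.31. For Dfd and Scr, whose signal may not exceed the background, the intervals do not bound a change in RNA. In RNA from whole discs, fewer cells that express a gene and less RNA per cell cannot be told apart.

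**Figure D1:**
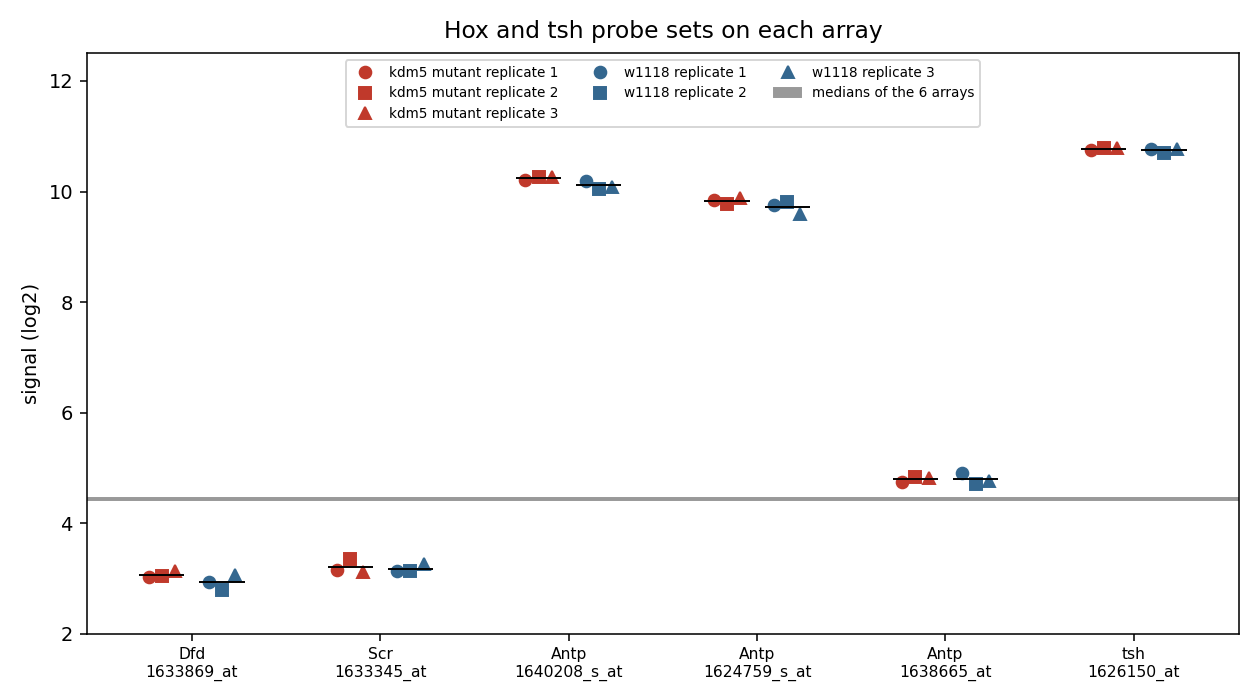
Log2 signal (vertical axis) of the 6 probe sets on each array, kdm5 mutant in red and w1118 in blue, with the mean of 3 arrays as a black line and the range of the array medians as a grey band. Dfd and Scr lie below the band on all 6 arrays, Antp 1638665_at just above it, and the remaining Antp probe sets and tsh far above it.

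Dfd, a gene of the Antennapedia complex that specifies maxillary and mandibular segments of the head, gave dim signal in both genotypes. Its probe set 1633869_at read 3.02, 3.04 and 3.13 in mutant discs, against 2.94, 2.79 and 3.07 in wild type discs. The ranges overlap, with wild type replicate 3 above 2 mutant arrays. Relative to the median of its own array the level was -1.37 ± 0.06 in mutant discs and -1.51 ± 0.15 in wild type discs (log2, SD, n = 3 each). Dfd exceeded between 10.1% and 13.5% of all probe sets on mutant arrays and between 3.90% and 11.8% on wild type arrays. Its change was 0.13 ± 0.08 (log2, SE, limma adjusted p = 0.316), with an interval of -0.05 to 0.32, and it read 0.06 without wild type replicate 2 and 0.20 without wild type replicate 3.

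Scr, which specifies labial and prothoracic identity and is known from the prothoracic leg disc, was also dim in both genotypes. Its probe set 1633345_at read 3.16, 3.36 and 3.12 in mutant discs, against 3.13, 3.14 and 3.27 in wild type discs. Mutant replicate 2 was the highest of the 6 arrays and mutant replicate 3 the lowest, so the wild type range lies within the mutant range. The level against the array median was -1.22 ± 0.13 in mutant discs and -1.26 ± 0.09 in wild type discs (log2, SD, n = 3 each), above 13.0% to 22.1% of probe sets on mutant arrays and 14.3% to 19.5% on wild type arrays. The change was 0.03 ± 0.08 (log2, SE, limma adjusted p = 0.847), with an interval of -0.15 to 0.22, and it read -0.04 without mutant replicate 2. No detection call per probe set was at hand, so for Dfd and Scr it is not known whether the signal exceeded the background. Among all probe sets below the median level, 4.70% were called, against 31.9% of those at or above it.

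Antp, which specifies the identity of the thorax, gave strong signal on a pair of probe sets whose names carry the suffix s_at, the manufacturer's mark for probes shared by several transcripts, and weak signal on another. Probe set 1640208_s_at read 10.21, 10.27 and 10.26 in mutant discs, against 10.20, 10.05 and 10.09 in wild type discs. All mutant arrays lie above all wild type arrays, but mutant replicate 1 and wild type replicate 1 are separated by less than the spread within either group. Against the array median it stood at 5.81 ± 0.03 in mutant discs and 5.67 ± 0.08 in wild type discs (log2, SD, n = 3 each), above 90.5% to 90.9% of probe sets on mutant arrays and 89.5% to 90.5% on wild type arrays.

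The change of 1640208_s_at was 0.13 ± 0.06 (log2, SE), or 1.10-fold, with an interval of 5.94e-05 to 0.27 and a limma adjusted p of 0.166 (0.0499 before adjustment). It was called with a trended and robust prior (limma adjusted p = 0.0387) and with the arrays centred on hybridization spike-ins (0.0206), and was not called under the other 14 alternatives, with adjusted p up to 0.347. Changes at least as large are common in these arrays: 38.1% of all probe sets had a larger absolute change.

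The second Antp probe set, 1624759_s_at, read 9.84, 9.77 and 9.88 in mutant discs, against 9.75, 9.82 and 9.60 in wild type discs. Here the groups overlap, since wild type replicate 2 lies above mutant replicate 2, and wild type replicate 3 is the lowest array. Its level against the array median was 5.39 ± 0.06 in mutant discs and 5.28 ± 0.10 in wild type discs (log2, SD, n = 3 each). The change was 0.10 ± 0.07 (log2, SE, limma adjusted p = 0.385), with an interval of -0.06 to 0.27, and it read 0.04 without wild type replicate 3.

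The third, 1638665_at, read 4.75, 4.84 and 4.82 in mutant discs, against 4.91, 4.71 and 4.76 in wild type discs. The highest and the lowest array are both wild type. It lay 0.37 ± 0.04 above the array median in mutant discs and 0.35 ± 0.11 in wild type discs (log2, SD, n = 3 each), above 53.6% to 54.4% and 52.9% to 54.5% of probe sets. The change was 0.01 ± 0.07 (log2, SE, limma adjusted p = 0.971), with an interval of -0.15 to 0.16. The Antp transcripts that each probe set reads are not stated in the files or labels.

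The 3 Antp probe sets can be compared within each array. The gap between both bright probe sets, 1640208_s_at minus 1624759_s_at, was 0.37, 0.50 and 0.39 in mutant discs, against 0.45, 0.23 and 0.49 in wild type discs, and these ranges overlap. The gap of 1640208_s_at over the dim 1638665_at was 5.46, 5.43 and 5.45 in mutant discs, against 5.29, 5.34 and 5.32 in wild type discs. The dim probe set changed by 0.01, so this gap largely repeats the change of 0.13 of 1640208_s_at. Neither probe set was called, the dim one has no detection call, and the difference in this gap was not tested. The gap of 1624759_s_at over 1638665_at was 5.09, 4.93 and 5.06 in mutant discs, against 4.84, 5.11 and 4.83 in wild type discs, where wild type replicate 2 was the widest of all. With the 3 probe sets averaged, Antp changed by 0.08 (log2, limma adjusted p = 0.318).

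The gene tsh encodes a zinc finger protein that specifies trunk identity beside the Hox genes and acts with hth in the proximal wing disc. Its probe set 1626150_at read 10.76, 10.78 and 10.78 in mutant discs, against 10.77, 10.70 and 10.77 in wild type discs. Wild type replicate 2 was the lowest array and the other 5 differed by 0.02 or less. Against the array median tsh stood at 6.34 ± 0.01 in mutant discs and 6.30 ± 0.05 in wild type discs (log2, SD, n = 3 each), above 93.8% to 93.9% and 93.5% to 94.0% of probe sets. The change of 0.03 ± 0.05 (log2, SE, limma adjusted p = 0.782) had the narrowest interval of the 6, -0.09 to 0.14, which is 0.942-fold to 1.10-fold. Probe sets differ in how well they bind, so the levels of tsh, Antp, Scr and Dfd are not ordered against each other here.

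**Figure D2:**
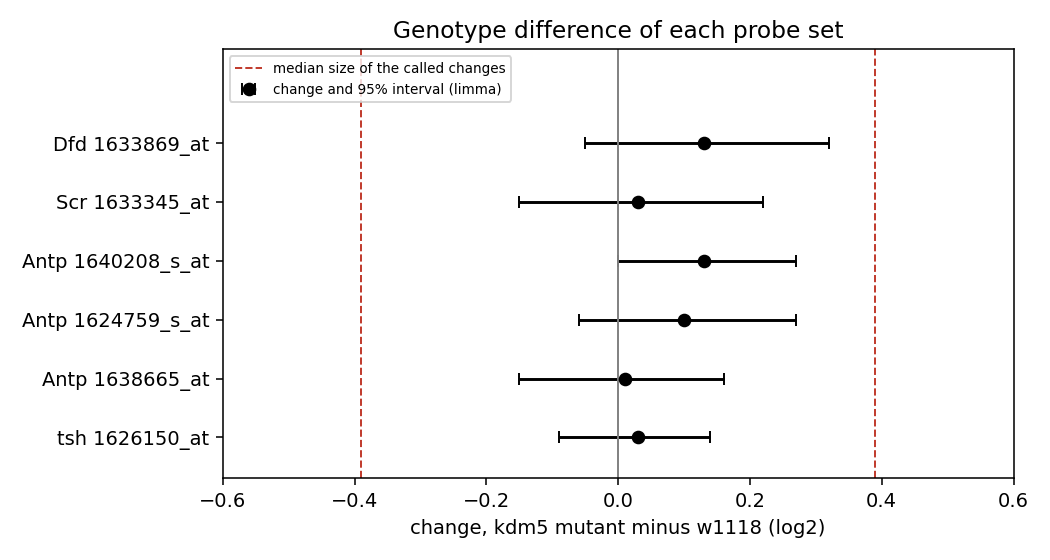
Change of each probe set, kdm5 mutant minus w1118 (horizontal axis, log2), with its 95% interval from limma over 3 arrays per group; dashed lines mark 0.39, the median size of the called changes, on either side of 0. All 6 points lie at or right of 0 and no interval reaches a dashed line. Called changes can lie inside the dashed lines, the smallest being 0.16.

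With each array centred on its hybridization spike-ins, a step that shifted the median of all probe sets to 0.19 and brought 6498 calls, Dfd and both bright Antp probe sets were called at 0.31, 0.31 and 0.28 (log2, limma adjusted p = 0.0154, 0.0206 and 0.0469). Under the same centring Scr and tsh changed by 0.21 and 0.20, near that median, and were not called. Quantile normalization gave 0.12 for Dfd and 0.12, 0.11 and 0.05 for the 3 Antp probe sets, with no call. Without wild type replicate 2, tsh read 0.0019.

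**Figure D3:**
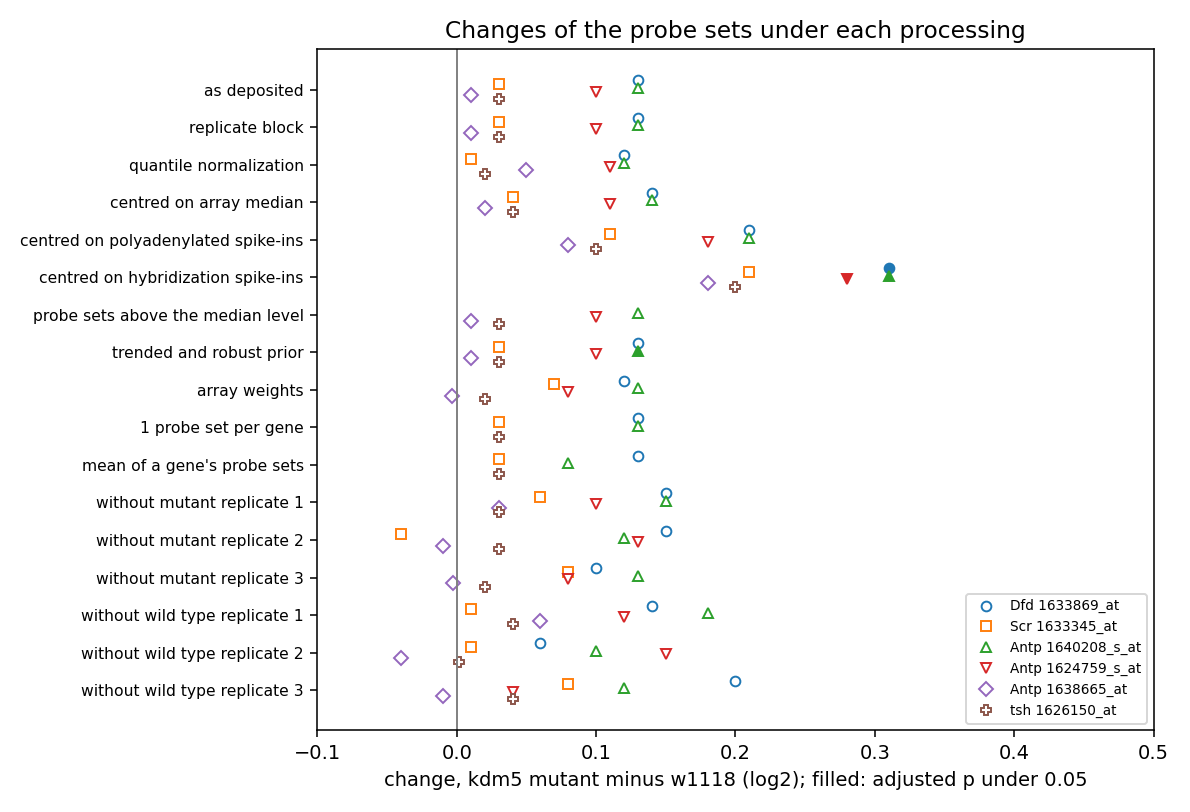
Log2 change, kdm5 mutant minus w1118 (horizontal axis), of the 6 probe sets under each processing (rows), with filled symbols for calls; Antp as a mean of its probe sets is drawn with the symbol of 1640208_s_at. All 6 move right together with spike-in centring, and 4 filled symbols appear in all.

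From lab to Antp in the gene order of the current RefSeq annotation, 16 genes had 19 probe sets, of which 12 lay below the median level. With Dfd, Scr and Antp counted among them, 2 of the 19 were called, against 18.3% of all probe sets. Both called probe sets lay above the median level. Of all probe sets at or above that level 31.9% were called, and of those below it 4.70%. This stretch was chosen after its values had been seen. Ama, an immunoglobulin-domain adhesion protein gene between bcd and Dfd, read 12.61, 12.59 and 12.54 in mutant discs, against 12.28, 12.11 and 12.27 in wild type discs. It rose by 0.36 ± 0.06 (log2, SE, limma adjusted p = 0.00652) and has been counted among genes of the myoblasts attached to the disc. Of 4 measured myoblast markers none was called with limma, with Him at -0.27 and zfh1 at 0.15. An unadjusted p under 0.05, which at least 18.3% of all probe sets have, was found for 1 of the 4. The summed linear signal of the 4 ran from 1281 to 1347 in mutant discs and from 1204 to 1460 in wild type discs.

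The other call was that of lncRNA:CR33938, within the cluster of cuticle genes between lab and pb. It read 9.99, 9.99 and 9.75 in mutant discs, against 10.32, 10.17 and 10.51 in wild type discs. It fell by 0.42 ± 0.10 (log2, SE, limma adjusted p = 0.03). Its call was lost when any 1 array other than wild type replicate 2 was left out, with a limma adjusted p of 0.0544 to 0.086 and 0.023 without wild type replicate 2. The call was also lost with the replicate block (limma adjusted p = 0.083) and with polyadenylated (0.0594) and hybridization (0.0726) spike-in centring. The remaining 17 probe sets, 5 of them those of Dfd, Scr and Antp, changed by -0.14 to 0.23 and were not called.

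Among them was pb, the Hox gene of the mouthparts, which read 3.44, 3.39 and 3.67 in mutant discs, against 3.09, 3.48 and 3.24 in wild type discs. The groups overlap, and the change of 0.23 ± 0.11 (log2, SE) was not called (limma adjusted p = 0.244). The derived Hox-complex genes zen, zen2, ftz and bcd, known from the early embryo, averaged 4.08, 2.91, 3.08 and 4.15 in mutant discs and 3.87, 2.85, 3.09 and 4.15 in wild type discs. Counted with pb and Ama as the other genes of the complex, 1 of 6 rose and none fell (limma), against 9.76% of all genes called higher. Only the called gene, Ama, had an unadjusted p under 0.05. The median change of the 6 was 0.13, ran from 0.07 to 0.19 without 1 array and read 0.21 and 0.31 with polyadenylated and hybridization spike-in centring.

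In the bithorax complex the annotation assigned 5 probe sets to lncRNA:iab8, a noncoding transcript of its abdominal part. Their means over the 6 arrays were 3.08 to 3.69, all below the median level, and their changes ran from -0.19 to 0.15. With limma none was called, and 2 had an unadjusted p under 0.05, in opposite directions: 1628218_at with -0.19 ± 0.06 and 1638632_at with 0.15 ± 0.05 (log2, SE, limma adjusted p = 0.0705 and 0.116). These probe sets, too, were added after the values had been seen. The share of dim probe sets at the unadjusted threshold was not counted.

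**Figure D4:**
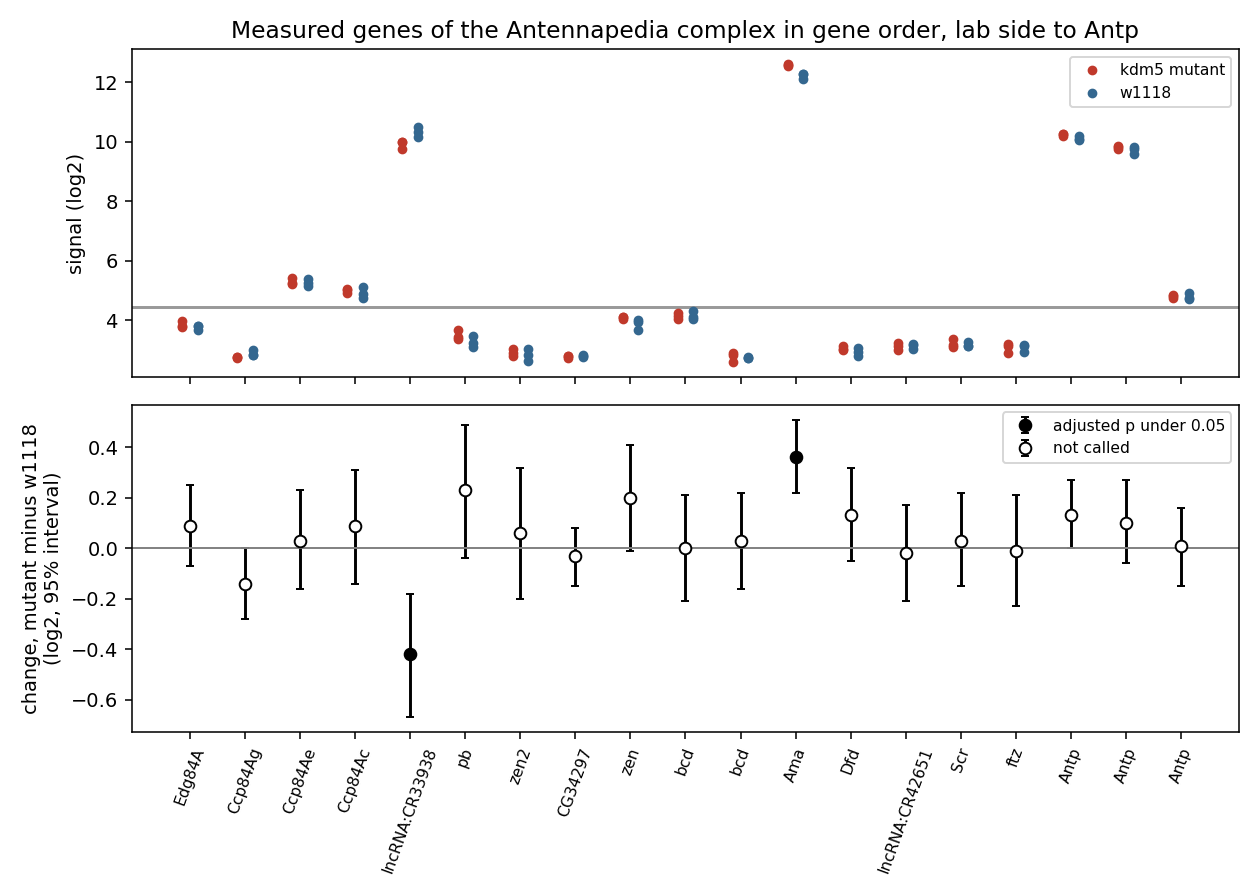
Probe sets of the 16 measured genes from the lab end of the Antennapedia complex to Antp in gene order, with log2 signal of each array above (kdm5 mutant red, w1118 blue, array medians grey) and the log2 change with its 95% interval below. Filled points, Ama at 0.36 and lncRNA:CR33938 at -0.42, were called; the 3 probe sets of Antp and those of Dfd and Scr were not.

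Lists of genes around the Hox genes were counted with 1 probe set per gene, where 21.7% of 11982 genes were called, 9.76% higher and 11.9% lower, with a median change of 0.00. All measured genes of the Polycomb, trithorax, Ubx-regulated and selector lists, and tio, disco and disco-r, lay above the median level. So did 8 of 9 proximal-distal factors. At or above that level 31.9% of all probe sets were called in either direction, a higher share than over all genes. Of the zinc finger genes related to tsh in sequence or in Hox interaction, tio, disco and disco-r, 1 of 3 rose. That was disco-r, at 6.93 ± 0.04 in mutant discs and 6.68 ± 0.02 in wild type discs (log2, SD, n = 3 each, limma adjusted p = 0.0111), a call lost when the probe sets of the gene were averaged (change 0.13, limma adjusted p = 0.124). The changes of tio, a paralogue of tsh, and disco were 0.12 ± 0.11 and 0.14 ± 0.07 (log2, SE).

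Of 16 measured Polycomb group genes, which hold Hox genes silent, 2 rose and 2 fell, with a median of 0.03 that read 0.10 and 0.20 with polyadenylated and hybridization spike-in centring. The gene escl, a paralogue of the PRC2 subunit gene esc, was higher at 8.21 ± 0.14 in mutant discs and 7.69 ± 0.13 in wild type discs (log2, SD, n = 3 each), a change of 0.52 ± 0.09 (SE, limma adjusted p = 0.00753). Pcl, which encodes an accessory protein of PRC2, changed by 0.22 ± 0.05. Psc, of PRC1, and E(z), the histone H3 lysine 27 methyltransferase, changed by -0.19 ± 0.05 and -0.22 ± 0.06. Pc itself read 8.64 ± 0.06 in mutant discs and 8.60 ± 0.04 in wild type discs. The smaller calls were fragile: Psc lost its call whichever array was left out (limma adjusted p = 0.0526 to 0.108), E(z) for every array other than mutant replicate 3 (0.0852 to 0.122; 0.0403 without that array), and Pcl without mutant replicates 1 or 3 or wild type replicates 1 or 2 (0.0558 to 0.0723).

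Of 19 measured trithorax group genes 1 rose and 2 fell, Kdm5 included, with a median of -0.04 that read 0.04 and 0.14 with polyadenylated and hybridization spike-in centring. The gene osa, of the Brahma remodelling complex, was higher at 9.75 ± 0.05 in mutant discs and 9.50 ± 0.04 in wild type discs (log2, SD, n = 3 each, limma adjusted p = 0.0152). The gene ash2, of the histone H3 lysine 4 methyltransferase complexes, changed by -0.20 ± 0.05 (log2, SE, limma adjusted p = 0.0298), and lost its call for every array left out other than wild type replicate 3 (0.0616 to 0.102; 0.0381 without that array). For trx the levels were 10.28 ± 0.04 in mutant discs and 10.35 ± 0.10 in wild type discs, and for Trl, the GAGA factor gene, 8.90 ± 0.03 and 8.93 ± 0.05.

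Of 9 measured patterning genes of wing and haltere, most of them known to be regulated by Ubx in the haltere, 6 fell and none rose, with a median of -0.21. All 9 lay above the median level, and of all probe sets at or above it 31.9% were called in either direction. The proneural genes ac and sc fell by 0.30 ± 0.05 and 0.26 ± 0.06, the vein gene kni by 0.24 ± 0.06 and bs, which marks intervein cells, by 0.21 ± 0.05 (log2, SE, limma adjusted p = 0.00915 to 0.0334). The count is sensitive to the processing: 0 of 9 fell with either spike-in centring, where the medians read -0.13 and -0.03, and 1 with the replicate number as a block. It was 2, 1 and 2 without mutant replicates 1, 2 and 3, and 3, 2 and 1 without wild type replicates 1, 2 and 3. These genes also act in the wing without Ubx, and Ubx was not analysed here.

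Selectors of wing and notum fell in 1 of 12 cases and rose in none, with a median of -0.08 that read 0.00 and 0.10 with polyadenylated and hybridization spike-in centring. Lower calls numbered 3 with the filter on dim probe sets or the trended prior. They numbered 0 with the replicate block, either spike-in centring, averaged probe sets or any 1 array left out. Higher calls numbered 2 with hybridization spike-in centring and 1 with averaged probe sets. The gene called with the arrays as deposited was vg, at -0.18 ± 0.05 (log2, SE, limma adjusted p = 0.0347), which lost its call whichever array was left out (0.0636 to 0.117). It read -0.07 with its probe sets averaged (limma adjusted p = 0.32) and -0.10 and -0.0026 with the spike-in centrings, also without a call. Proximal-distal factors fell in 3 of 9 cases, with a median of -0.06 that read 0.02 and 0.12 under these centrings. Lower calls in this list numbered 0 with either spike-in centring. Higher calls, 0 with the arrays as deposited, numbered 2 with quantile normalization, polyadenylated spike-in centring or array weights, 3 with hybridization spike-in centring, the filter on dim probe sets or the trended prior, and 1 with averaged probe sets. Dll, al and rn changed by -0.31 ± 0.06, -0.22 ± 0.05 and -0.35 ± 0.10 (limma adjusted p = 0.0147, 0.0263 and 0.046), beside 0.03 ± 0.05 for tsh. Without 1 array, Dll lost its call for mutant replicate 2 and wild type replicate 1 (0.0609 and 0.0523), and al and rn for every array other than wild type replicate 1 (0.0701 to 0.089 and 0.0657 to 0.135; 0.033 and 0.00943 without that array). With its probe sets averaged rn read -0.12 (limma adjusted p = 0.149), and it was not called with quantile normalization (0.105) or array weights (0.0698), nor were Dll, al and rn with either spike-in centring. Whether the Hox genes and tsh differ from these lists was not tested.

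**Figure D5:**
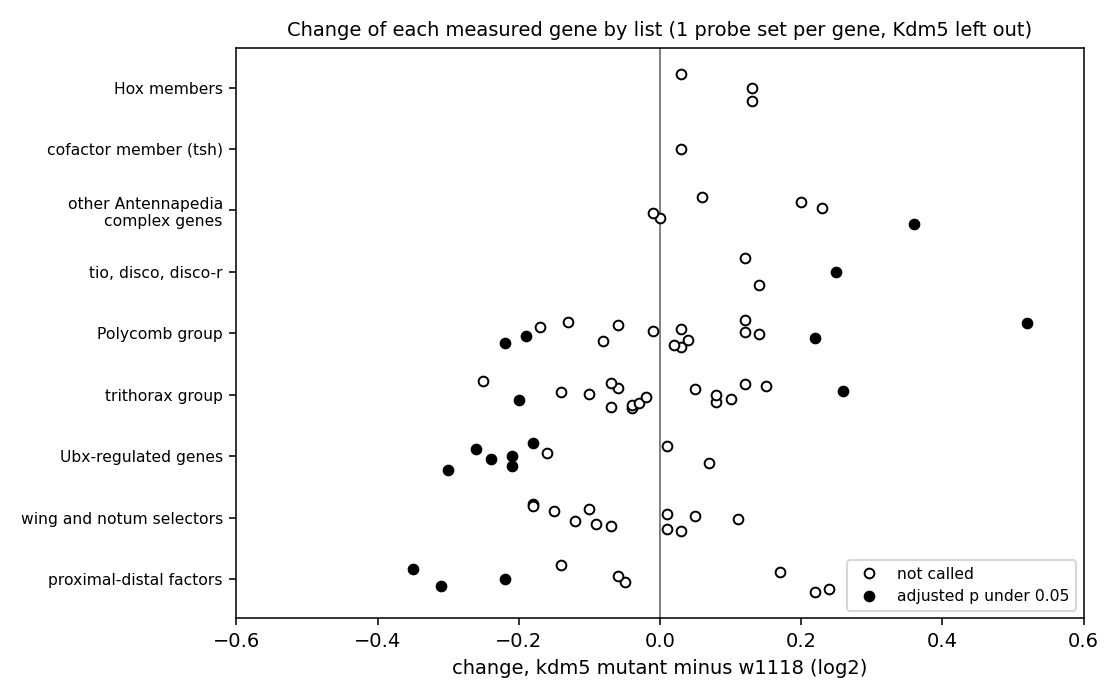
Log2 change, kdm5 mutant minus w1118 (horizontal axis), of each measured gene by list, with 1 probe set per gene and Kdm5 left out; filled points were called. The Hox genes and tsh hold no filled point. Of the 9 patterning genes plotted as Ubx-regulated, 6 are filled on the lower side with the arrays as deposited, a count that was 0 with either spike-in centring, 1 with the replicate block and 1 to 3 without 1 array.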

How the data were processed

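RNA of 6 samples was hybridised to Drosophila Genome 2.0 arrays, 100 ng of total RNA each, per the labels' protocols. The authors deposited normalized log2 signals. Per the submitters' processing notes, GCRMA, PLIER, GCOS and Affymetrix Expression Console were used, with no order, so the tool behind the values is unknown. No p-value or detection call came with them. After 183 control probe sets were left out, 18769 were tested. GEO's platform annotation gave 1 gene for 13647, several for 402 and none for 4720; symbols were updated by gene identifier for 13544 with the RefSeq table of GCF_000001215.4 Release 6. Coordinates and sequences are left out because the series states no build.

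limma 3.58.1 in R 4.3.3 (lmFit, eBayes) compared genotypes two-sided with no other term, with Benjamini-Hochberg adjustment over all 18769 at 0.05. The fit was tested on simulated data. Groups and replicate numbers came from the titles. The titles call the replicates biological; separate crosses are not stated, and p-values measure only the spread between these arrays; no hybridization batch is given. The members, lists and tests were chosen with earlier results of these data known. A gene in a list is its probe set of highest mean. Named were all members, and of each list up to 4 called genes by smallest p, otherwise the 2 brightest; further genes were named after their values were seen. Genes of like pattern were to be named only for a called member, and there was none. Alternatives were a block, other normalizations, filters, priors, weights, probe set rules and each array left out. The number of arrays limits the precision.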

Additional observations from a re-analysis of the deposited data

How the results depend on the processing

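Under 16 alternatives the 6 Hox and tsh probe sets gave 90 results, of which 80 kept their direction and were not called. The 4 calls were those of Dfd (0.31), Antp 1640208_s_at (0.31) and Antp 1624759_s_at (0.28) with hybridization spike-in centring, beside a median of 0.19 over all probe sets, and of Antp 1640208_s_at (0.13) with a trended and robust prior. The hybridization and polyadenylated spike-ins themselves read -0.18 and -0.08 in mutant minus wild type. The 6 opposite signs were Antp 1638665_at with array weights (-0.00329) and in 4 cases without 1 array, and Scr in 1. Without 1 array Dfd ran from 0.06 to 0.20, Scr from -0.04 to 0.08, the Antp probe sets 1640208_s_at, 1624759_s_at and 1638665_at from 0.10 to 0.18, 0.04 to 0.15 and -0.04 to 0.06, tsh from 0.0019 to 0.04 and Kdm5 from -5.98 to -5.50. Set against the median of probe sets with 1 gene, the mean level of Dfd read -2.46, of Scr -2.27, of the Antp probe sets 4.72, 4.31 and -0.67 and of tsh 5.30.

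Higher and lower calls numbered 1593 and 1846. Higher calls were 5599 with hybridization centring and 1020 to 1281 without 1 array. Lower calls were 1059 with polyadenylated and 899 with hybridization centring and 1300 to 1543 without 1 array. Whether equal replicate numbers pair the samples is not stated. Correlations of deviations from the group means were -0.066, -0.028 and -0.185 for replicates 1, 2 and 3. For unlike numbers they ran from -0.116 to 0.133. Deviations cancel within each group, so these values cannot decide whether equal numbers were processed together. With the replicate number as a block no member was called (limma adjusted p = 0.254 to 0.974), and higher and lower calls of the Polycomb list were 1 and 0, lower calls of the trithorax list 1 and of the Ubx-regulated list 1. With hybridization centring higher calls were 3 for the other complex genes, 3 for tio, disco and disco-r, 6 for Polycomb, 5 for trithorax and 1 for Ubx-regulated genes. Lower calls were 0 for Polycomb, 1 for trithorax and 0 for Ubx-regulated genes with either spike-in centring, and 0 and 1 for Polycomb with quantile normalization and median centring. Higher calls of Polycomb and trithorax genes were 4 and 2 with the filter on dim probe sets and 4 and 3 with the trended prior, and with averaged probe sets 2 for trithorax and 0 for tio, disco and disco-r. Without 1 array the Polycomb list had 1 to 2 higher and 0 to 1 lower calls, the trithorax list 1 higher and 1 to 2 lower, and the Ubx-regulated list 1 to 3 lower.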
